A study of Mus musculus with 6 samples.

Results

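The variable segments of the immunoglobulin kappa light chain (Igkv) were examined in sequenced RNA of small intestinal mucosa, taken from its middle part. The members were the symbols that start with Igkv in the GENCODE M21 annotation (GRCm38, mm10) and that could be placed on a row of the deposited expression table. They numbered 63 of 12397 placed genes, in a table of 22700 rows. Gene names in that table stand beside the values of other genes, and each name was moved to its row in 2 steps. Names were ranked by the K79S values beside them, which belong mostly to other genes, and rows were ranked by the WT library W83S. The members were thus chosen by their W83S values, with the K79S column giving the order of the names. The placing did not use the contrast between the genotypes, but the list was chosen with earlier results of these data known.

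The samples were 3 alk-SMase knockout mice (KO, libraries K79S, K82S and K86S) and 3 wild-type mice (WT, libraries W83S, W89S and W90S), all of the strain C57BL/6 with no treatment named, and with 1 library per mouse. Their age and sex are not given in the sources used here. Alk-SMase, encoded by Enpp7, is the enzyme that breaks down sphingomyelin in the gut, and in the KO mice exon 2 of Enpp7 had been removed by Cre recombinase, whose promoter is not given in the sources used here. The comparison of the genotypes asks what the loss of this enzyme changes in the intestinal transcriptome, and here in its kappa chain transcripts.

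Antibody-producing cells assemble each kappa light chain gene by joining 1 Igkv segment to a short joining segment (Igkj), and the joined exon is spliced to the constant exon Igkc. The segment supplies most of the antigen-binding domain, and a plasma cell clone carries the segment of its founder in every one of its kappa transcripts. The wall of the small intestine is rich in plasma cells, most of which make IgA, so its bulk RNA holds a mixture of the segments used by many clones. In bulk tissue, fewer cells of a type and less RNA per cell cannot be told apart.

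The annotation lists 160 Igkv entries, 100 as variable genes and 60 as pseudogenes, of which 86 are listed in the table. Of those 86, 63 were placed on a row, all of them variable genes, and 23 were not and have no value here. Of these 23, 22 ranked below the last range in which names could be placed, and 1 fell between ranges. All placed segments therefore had at least 1.00 FPKM (fragments scaled to transcript length and to the mapped reads of the library) in W83S, the lowest being Igkv1-88 at 1.00 and Igkv3-1 at 1.06. The placed segments belong to 16 families and lie on chromosome 6 between 67555497 and 70704177, with 23 on the plus strand and 40 on the minus strand. Igkc lies at 70726435 to 70726966 on the plus strand, and the distance from a segment to it ran from 22258 bases (Igkv3-1) to 3170219 bases.

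Sequences from the GENCODE M21 transcripts are shown for the segments on which the results turn, since segments that are nearly alike share reads. A read of 50 bases that lies in a stretch common to 2 segments cannot be assigned to either from its sequence. The first pair, Igkv1-110 and Igkv1-117, were the highest segments in mean FPKM, and their variable exons (V exons) have 313 bases each, with 10 differences, or 96.8% identity. The longest shared run was 142 bases, and 121 of the 264 words of 50 bases were the same at the same place. The last 300 bases of both V exons are on the plus strand, at chr6:68270968-68271267 and chr6:68121528-68121827, and capitals mark the bases that differ.
Igkv1-110: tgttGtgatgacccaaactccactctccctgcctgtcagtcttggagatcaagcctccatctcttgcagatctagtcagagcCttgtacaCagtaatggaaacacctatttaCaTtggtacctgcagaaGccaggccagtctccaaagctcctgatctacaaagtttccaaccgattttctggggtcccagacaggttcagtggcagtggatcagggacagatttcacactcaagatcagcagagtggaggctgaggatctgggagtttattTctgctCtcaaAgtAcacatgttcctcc
Igkv1-117: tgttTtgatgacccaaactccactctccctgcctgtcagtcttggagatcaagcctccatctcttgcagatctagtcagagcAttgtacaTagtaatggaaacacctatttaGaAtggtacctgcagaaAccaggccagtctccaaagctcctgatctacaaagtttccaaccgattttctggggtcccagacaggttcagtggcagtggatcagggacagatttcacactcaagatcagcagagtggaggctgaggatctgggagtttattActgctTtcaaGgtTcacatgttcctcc

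The 3′ ends of other V exons are shown for the segments that led a library, were high in 1 library or kept their genotypes apart. Capitals run from the last in-frame cysteine codon, which opens the third complementarity-determining region (CDR3), to the end of the segment, where the joining segment is attached. All are written in the direction of transcription. The ends of Igkv5-43 and Igkv5-45 are the same, and the V exons of this pair were 98.99% identical.
Igkv5-43 (chr6:69823355-69823416, minus strand): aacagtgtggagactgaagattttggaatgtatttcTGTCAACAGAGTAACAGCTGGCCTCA
Igkv5-45 (chr6:69775750-69775811, minus strand): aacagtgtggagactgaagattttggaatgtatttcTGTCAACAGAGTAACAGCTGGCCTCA
Igkv8-24 (chr6:70216858-70216919, minus strand): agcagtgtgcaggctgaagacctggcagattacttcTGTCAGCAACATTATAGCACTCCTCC
Igkv9-124 (chr6:67942074-67942135, minus strand): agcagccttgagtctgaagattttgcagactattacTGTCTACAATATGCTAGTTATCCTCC
Igkv6-32 (chr6:70074024-70074085, minus strand): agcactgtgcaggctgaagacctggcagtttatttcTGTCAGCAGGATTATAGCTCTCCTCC
Igkv4-57-1 (chr6:69544359-69544422, minus strand): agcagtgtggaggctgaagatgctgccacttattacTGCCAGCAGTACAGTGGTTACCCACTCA
Igkv19-93 (chr6:68736297-68736358, minus strand): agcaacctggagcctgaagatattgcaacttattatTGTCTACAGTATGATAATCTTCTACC
Igkv14-100 (chr6:68519416-68519477, plus strand): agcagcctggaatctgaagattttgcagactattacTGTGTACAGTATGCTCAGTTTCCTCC
Igkv8-27 (chr6:70171809-70171865, minus strand): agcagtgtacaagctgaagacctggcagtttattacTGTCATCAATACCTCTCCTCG
Igkv6-15 (chr6:70406469-70406530, minus strand): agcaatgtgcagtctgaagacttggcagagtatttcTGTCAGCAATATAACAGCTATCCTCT

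Over all 63 segments, the identity of a V exon to its nearest placed neighbour had a median of 94.97% and ran from 73.6% to 98.99%. In 53 segments some word of 50 bases also occurred in another gene, in 13 of them over 50% of the words did, and in 10 segments no word did. Igkv8-24, Igkv6-32, Igkv19-93 and Igkv14-100 are among these 10. How the quantification divided shared reads is not given in the sources used here, so the values of near-identical segments are uncertain one by one.

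Enpp7, the target of the knockout, was listed at 605, 129 and 669.7 FPKM for the KO mice and at 406, 667 and 495 FPKM for the WT mice. These values cover all exons together, leave a loss of exon 2 unseen and check no label. K82S had the lowest Enpp7 value, and it had the highest value of Cd79a, a signalling part of the B cell receptor, at 33.1 FPKM beside 2.32 to 21.2 FPKM in the other libraries. W83S stood apart in genes of the stomach, whose 6 placed markers summed to 38524 FPKM there and to at most 5.24 FPKM in every other library. Pancreatic acinar markers, of which 2 were placed, summed to 2311 FPKM in W83S and to at most 2.02 FPKM elsewhere. Of the labelled tissue's own markers, all 6 enterocyte genes were placed, among them Fabp2 and Apoa4, with sums from 10113 FPKM in K82S to 20581 FPKM in K86S. The summed FPKM of a whole library was between 393152 and 495362, and no read counts could be recovered from it.

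The Igkv sum was higher in every KO library than in every WT library, but by little for K79S. It was 671, 1814 and 1082 FPKM in K79S, K82S and K86S, a mean of 1189 ± 579 (SD, n = 3). In W83S, W89S and W90S it was 658, 588 and 422 FPKM, a mean of 556 ± 121 (SD, n = 3). The ratio of the means was 2.14, or 1.10 on the log2 scale. The KO spread was set by K82S, without which the log2 ratio was 0.66. As a share of a library's summed FPKM, the segments held 0.171%, 0.389% and 0.257% in the KO libraries against 0.136%, 0.119% and 0.0891% in the WT libraries.

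Igkc, the constant exon that every kappa transcript carries, overlapped between the genotypes through K79S. It had 1165, 3135 and 2253 FPKM in the KO libraries and 1636, 1444 and 1397 FPKM in the WT libraries (log2 fold change 0.44, standard error [SE] 0.37, adjusted p = 0.629 from limma). The log2 fold change of Igkc was 0.84 without K79S (adjusted p = 0.760 from limma) and 0.12 without K82S (adjusted p = 0.852). K79S had the lowest Igkc value of all libraries, although its Igkv sum was above all WT sums. The Igkv sum divided by Igkc was 0.576, 0.579 and 0.480 in the KO libraries and 0.402, 0.407 and 0.302 in the WT libraries, with no overlap. A like ratio in the heavy chain was the sum of 69 placed Ighv segments over the IgA constant gene Igha. It was 0.843, 0.988 and 0.755 in the KO libraries and 0.595, 0.725 and 0.430 in the WT libraries, again with no overlap. Igha is only 1 of the heavy chain constant genes. Ighm and Ighg2b, of other classes, were highest in K82S, at 102 and 72.6 FPKM, and their part in this ratio was not tested. Both ratios set transcripts of unlike length and shared sequence against each other, and the part of these in the difference was not tested.

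**Figure D1:**
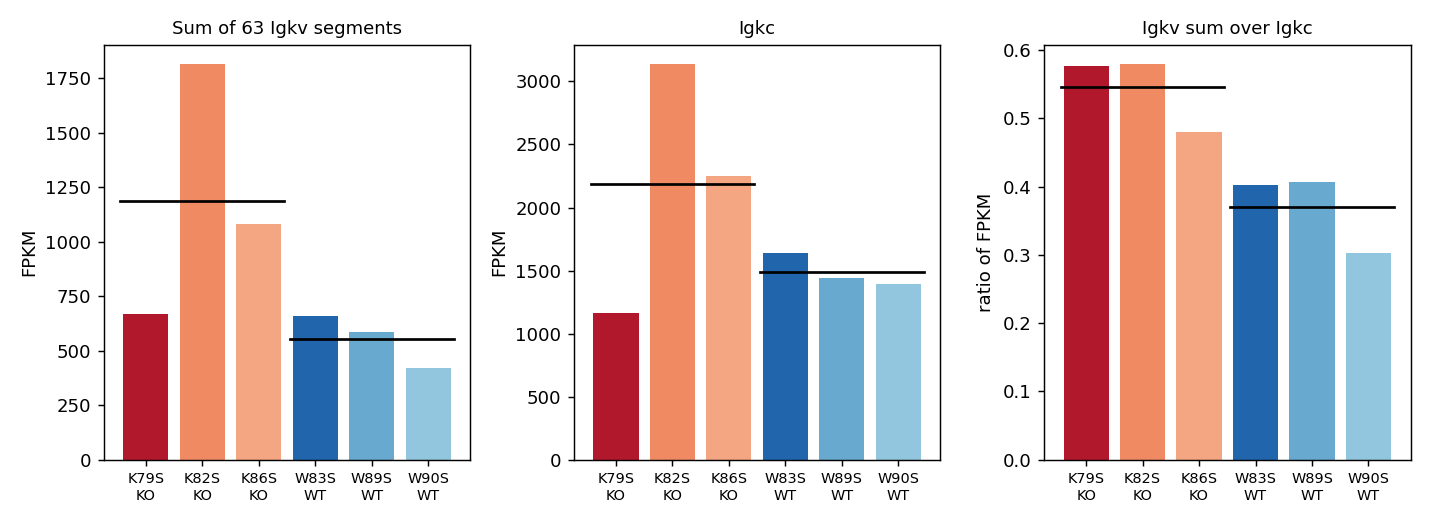
Bars show, for each library, the summed FPKM of the 63 Igkv segments (left), the FPKM of Igkc (middle) and the ratio of the 2 (right), with black lines at the mean of the 3 KO libraries (red) and the 3 WT libraries (blue). The ratio lies between 0.480 and 0.579 in KO and between 0.302 and 0.407 in WT, while the Igkc values of the genotypes overlap.

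Segment by segment, no Igkv gene passed the test between KO and WT. With limma on log2(FPKM + 1), a gene was called at an adjusted p under 0.05 and a fold above 1.5 or below 2/3. All 63 segments passed the filter on low values and 0 were called, beside 0.00764% of the 13089 rows tested, and their adjusted p ran from 0.393 to 0.988. At an unadjusted p under 0.05 there were 13 segments (20.6%), all of them higher in KO, beside 12.5% of all rows in either direction and 2.87% in that direction. The log2 fold change was above 0 for 46 segments (73.0%), beside 42.3% of all rows. The median over the segments was 0.63 on the log2 scale, beside -0.06 over all rows, and the values ran from -0.83 (Igkv4-70, named after its value was seen) to 2.09 (Igkv6-32). Without K82S the median over the segments was 0.10, beside -0.09 over all rows.

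In 9 segments (14.3%) every KO value exceeded every WT value, beside 5.90% of all rows, and in 0 segments was every KO value below, beside 11.3% of all rows. The exact permutation test of 3 libraries against 3 can give no p below 0.1 (two-sided), which each of the 9 has. Their adjusted p from limma was 0.393 in every case, so each is given below as values and not as a change.

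Igkv1-110 and Igkv1-117 led the 9 in level. Igkv1-110 had 69.5, 169 and 97.9 FPKM in the KO libraries and 35.2, 16.3 and 26.8 FPKM in the WT libraries (log2 fold change 2.03, SE 0.40). Igkv1-117 had 55.4, 121 and 77.5 FPKM in the KO libraries and 42.3, 14.6 and 19.4 FPKM in the WT libraries (log2 fold change 1.77, SE 0.45). Both were highest in K82S and, among the WT libraries, highest in W83S. Since the V exons printed above share many words, the pair was also summed, to 124.9, 290.0 and 175 FPKM against 77.6, 30.8 and 46.2 FPKM, which did not overlap either.

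Igkv5-43 had nearly the same level in the 3 WT mice. Its KO values were 26.2, 51.3 and 19.9 FPKM and its WT values 7.36, 6.92 and 6.33 FPKM (log2 fold change 1.98, SE 0.33). Its near copy Igkv5-45, chosen after its values were seen, had 6.53 FPKM in K79S, 2.64 in W83S and 3.21 in W90S, with a listed 0 in K82S, K86S and W89S. The sum of the pair kept the genotypes apart, with 32.7, 51.3 and 19.9 FPKM in KO against 10.01, 6.92 and 9.54 FPKM in WT.

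Igkv8-24 is the only one of the 9 whose V exon shares no word of 50 bases with another gene. It had 3.93, 19.1 and 11.3 FPKM in the KO libraries and 2.86, 1.47 and 3.11 FPKM in the WT libraries (log2 fold change 1.65, SE 0.51). Its K79S value was close to the highest WT value. Igkv8-19, of the same family, had 5.93, 8.02 and 33.3 FPKM against 3.68, 3.71 and 0.763 FPKM, and was highest in K86S (log2 fold change 1.93, SE 0.67).

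Igkv6-17 had 19.6, 43.3 and 8.26 FPKM in KO and 6.01, 7.69 and 3.70 FPKM in WT (log2 fold change 1.63, SE 0.56). When it was summed with Igkv6-25, its neighbour at 95.6% identity, the genotypes overlapped. Igkv4-57 had 17.5, 19.8 and 3.79 FPKM in KO and 3.16, 3.58 and 2.79 FPKM in WT (log2 fold change 1.56, SE 0.54). Its K86S value lay just above W89S. Igkv4-80 had 2.67, 4.51 and 9.65 FPKM against 1.78, 0.928 and 2.06 FPKM (log2 fold change 1.24, SE 0.40). Igkv3-1, the segment nearest to Igkc, had 2.55, 3.17 and 2.90 FPKM against 1.06, 0.802 and 1.78 FPKM (log2 fold change 0.83, SE 0.19), the closest agreement among KO mice of the 9.

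**Figure D2:**
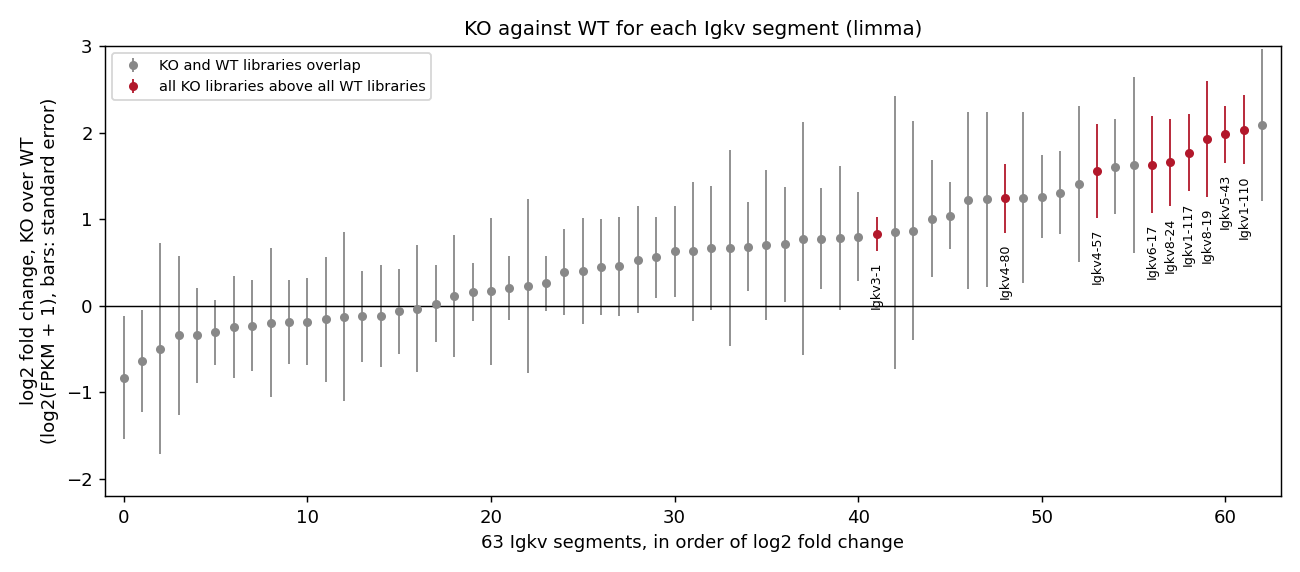
Points show the log2 fold change of KO over WT on the log2(FPKM + 1) scale for the 63 segments, in order of size, with limma standard errors as bars. The 9 named segments in red have all 3 KO libraries above all 3 WT libraries, and the values run from -0.83 to 2.09 with 46 above 0.

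The members were placed by W83S, so the comparison was repeated with the 5 other libraries. K79S stayed in it, although its column had ordered the names. Of the 62 segments that then passed the filter, 12 had an unadjusted p under 0.05, all higher in KO, beside 8.65% of rows in either direction and 1.75% in that direction. In 15 (24.2%) every KO value exceeded every WT value, beside 7.75% of rows, and in 0 every KO value was lower, beside 20.7%. The median log2 fold change was 0.56, beside -0.07 over all rows, with 50 segments above 0, and 0 were called (lowest adjusted p = 0.542 from limma).

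K82S was the library that moved the count of called segments. It was the highest library for 45 of the 63 segments (71.4%), beside 22.1% of all rows. K86S was highest for 10 segments (12.5% of rows), K79S for 3 (15.6%), W83S for 2 (11.9%), W89S for 2 (17.7%) and W90S for 1 (20.2%). Without K82S, 4 of 62 segments were called by limma, 2 in each direction, beside 9.28% of the rows then tested, 0.400% higher and 8.88% lower in KO. An unadjusted p under 0.05 was reached by 10 segments, 8 of them higher in KO, beside 25.7% of rows in either direction and 4.10% in that direction. Igkv1-110 was 1.69 (adjusted p = 0.0429) and Igkv5-43 1.60 (adjusted p = 0.0319) higher on the log2 scale. Igkv5-48 was lower by 1.35 (adjusted p = 0.0319 from limma) and Igkv4-70 by 1.68 (adjusted p = 0.0359), both named after their values were seen. Igkv5-48 had 7.93 and 5.02 FPKM in K79S and K86S, beside 19.0, 16.5 and 17.8 FPKM in WT. Igkv4-70 was listed at 0 in K79S and K86S, beside 1.33, 3.69 and 1.98 FPKM in WT, and 66.4% of its words occurred in other genes. The omitted K82S was the highest library for both, at 31.5 and 4.80 FPKM. In 9 segments (14.5%) the remaining KO libraries lay above the WT libraries, beside 11.9% of rows. These were the same 9 as before, whose separation leaving out a KO library cannot undo, and none joined them. In 5 (8.06%) they lay below, beside 32.3% of rows. So without K82S the share above was near that of all rows, and the share below was under it. Leaving out K79S, K86S, W89S or W90S left 0 segments called, beside at most 0.00777% of rows. Without K79S, 16 segments had every KO value above every WT value and 0 below, beside 8.85% and 13.7% of rows. Without K86S there were 18 above and 0 below, beside 12.5% and 15.5% of rows. The counts without W89S were 13 and 0, beside 12.5% and 17.4%, and without W90S 10 and 1, beside 9.56% and 13.5%.

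Without both K82S and W83S, 6 of 58 segments were called, 3 in each direction, beside 8.88% of the rows tested in either direction and 0.336% of them higher in KO. In 15 segments (25.9%) the KO values were all higher, beside 14.4% of rows, and in 7 (12.1%) all lower, beside 38.4%. The median log2 fold change was then 0.21, beside -0.10 over all rows.

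The segments varied widely over the 6 libraries. For the 53 segments with no listed 0, the highest library was at the median 7.76 times the lowest, beside 1.85 times over the 12763 such rows of the table. In 13 segments (20.6%) the highest library exceeded 3 times the next, beside 1.23% of all rows. K82S was that library for 9 of them, K86S for 3 and K79S for 1, and none of the WT libraries was.

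Igkv4-57-1 had 174 FPKM in K82S beside 5.38 in K79S and 2.86 in K86S, and 15.3, 20.8 and 1.09 FPKM in WT. Igkv19-93 had 120.3 FPKM in K82S and between 4.54 and 22.2 FPKM in the other libraries. In K86S, Igkv9-124 had 177 FPKM, beside 4.53 and 9.99 FPKM in the other KO libraries and 7.66, 36.8 and 5.60 FPKM in the WT libraries. Also in K86S, Igkv6-32 had 167 FPKM, beside 11.8 and 31.1 FPKM in KO and 12.3, 5.99 and 8.68 FPKM in WT. Igkv14-100, named after its values were seen, had 41.3 FPKM in K79S and between 0.458 and 3.58 FPKM elsewhere. These spikes fell in KO libraries, and the fold changes of the segments had standard errors of 0.88 or more, with no segment called. Igkv3-10, the highest of family 3, repeated the pattern at a lower level, with 40.0 FPKM in K82S and between 1.68 and 6.95 FPKM elsewhere.

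In the other abundant segments named here, the genotypes overlapped. Igkv6-15, next after the family 1 pair in mean FPKM, had 17.2, 70.2 and 53.6 FPKM in KO and 36.5, 47.7 and 43.2 FPKM in WT. Igkv8-21 had 63.1, 41.1 and 12.4 FPKM in KO and 53.5, 26.2 and 30.3 FPKM in WT. Igkv8-27 was high in K82S (42.9), K86S (72.9) and W83S (69.7) and between 4.57 and 6.11 FPKM in the other libraries. Igkv10-96 had 31.7, 61.4 and 12.9 FPKM against 25.1, 18.8 and 9.93 FPKM, and Igkv6-23 had 18.9, 47.7 and 5.72 FPKM against 17.8, 35.1 and 5.78 FPKM. Igkv12-44, the highest of family 12, had 7.46, 23.4 and 24.5 FPKM against 13.8, 5.35 and 14.2 FPKM. Igkv9-120 came nearest to a separation among these, with 14.8, 51.6 and 35.5 FPKM in KO and 13.2, 17.2 and 7.60 FPKM in WT, where only W89S overlapped K79S. Its log2 fold change was 1.26 (SE 0.48, unadjusted p = 0.0369 and adjusted p = 0.393 from limma).

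**Figure D3:**
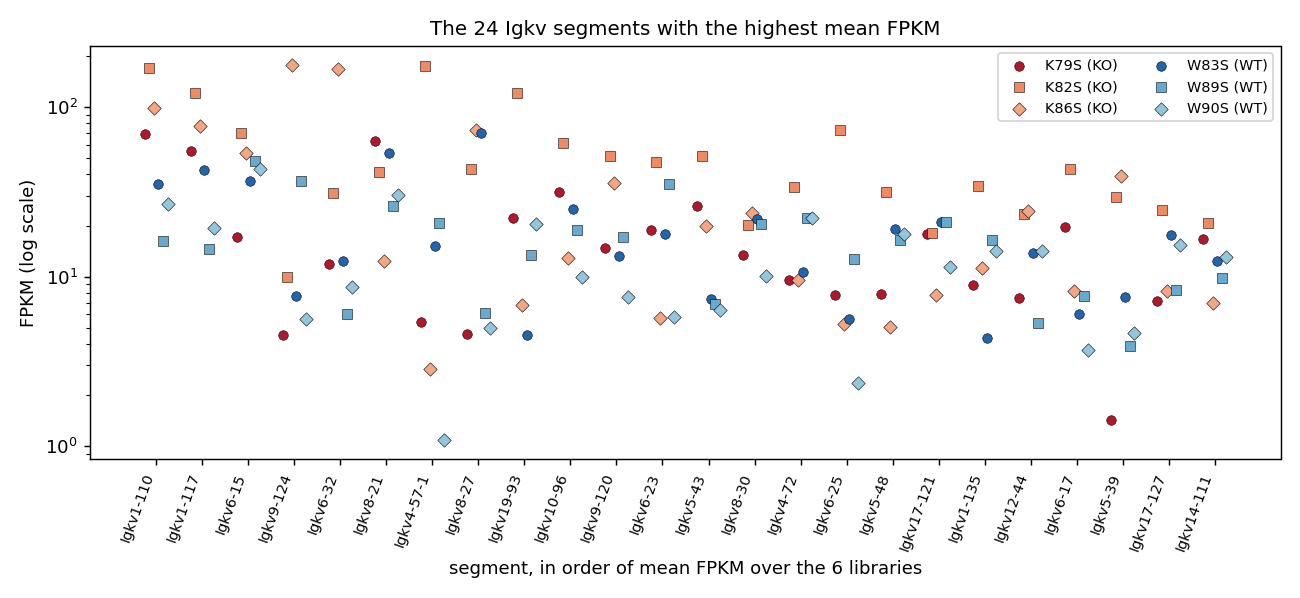
Points show the FPKM (log scale) of the 24 segments of highest mean level in the 3 KO libraries (red shades) and 3 WT libraries (blue shades). Igkv1-110 and Igkv1-117 have all red points above all blue ones, while Igkv9-124, Igkv6-32, Igkv4-57-1 and Igkv19-93 each have 1 KO library far above the rest.

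Each library had its own leading segments. The highest was Igkv1-110 in K79S (10.4% of the Igkv sum), Igkv4-57-1 in K82S (9.58%) and Igkv9-124 in K86S (16.4%). In the WT libraries it was Igkv8-27 in W83S (10.6%) and Igkv6-15 in W89S (8.12%) and W90S (10.2%). The 5 highest segments of a library held 38.9%, 36.2% and 54.8% of the sum in K79S, K82S and K86S, and 36.1%, 31.2% and 33.9% in W83S, W89S and W90S. Reaching 50% of the sum took 9, 10 and 5 segments in the KO libraries and 10, 11 and 10 in the WT libraries. The effective number of segments, the exponential of the Shannon entropy of their shares, was 34.4, 37.3 and 21.8 in KO and 36.5, 37.8 and 36.2 in WT. Thus K86S was the most concentrated library, K82S lay within the WT range and K79S below it.

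**Figure D4:**
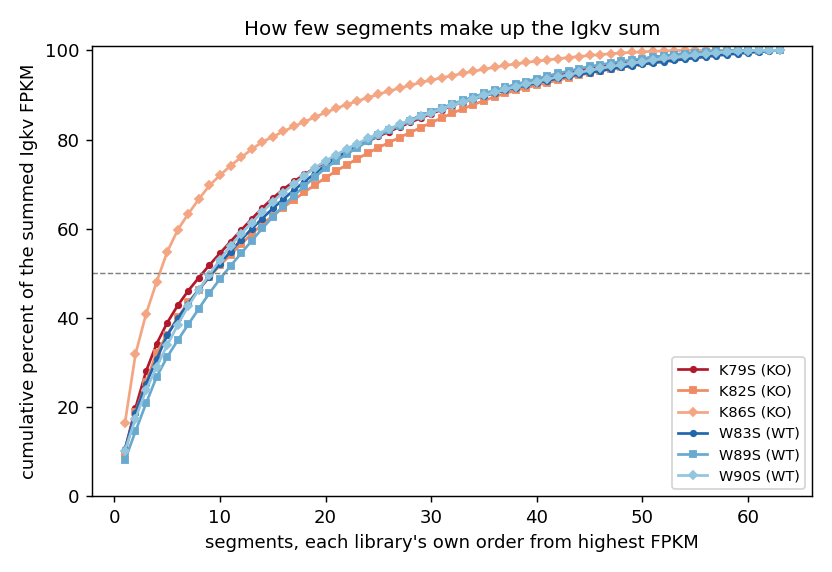
Lines show the cumulative percent of the summed Igkv FPKM against the number of segments, each library in its own order from the highest, with 50% dashed. K86S reaches the dashed line with 5 segments and the other 5 libraries with 9 to 11.

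The levels of the segments correlated less between mice than those of all rows tested. Over the 63 segments, the Pearson correlation of log2(FPKM + 1) between libraries was 0.522 to 0.606 among KO mice, 0.584 to 0.649 among WT mice and 0.518 to 0.686 between the genotypes. Over all rows tested it was between 0.926 and 0.968. Those rows span a wider range of FPKM, and the part of that range in the difference was not tested. Spearman's rho, computed over the segments only, was 0.507 to 0.653, 0.613 to 0.663 and 0.546 to 0.696 in the same order. The ranges within and between the genotypes overlapped. These are correlations across segments of 1 locus, which share reads, and are given as a description.

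By family, the sums separated the genotypes in 2 of 16, both higher in KO, beside 5.90% of single rows higher and 11.3% lower. Family 1, with 6 placed segments, summed to 133.8, 334 and 187 FPKM in KO and 86.4, 48.4 and 63.3 FPKM in WT, a ratio of means of 3.30, and most of it came from Igkv1-110 and Igkv1-117. Family 5, with 4 segments, summed to 42.1, 112 and 64.1 FPKM in KO and 36.6, 27.4 and 32.0 FPKM in WT, led by Igkv5-43. The largest family, family 4 with 16 segments, summed to 66.6, 348 and 72.5 FPKM in KO and 69.1, 112 and 60.4 FPKM in WT, where K82S was highest and K79S lay below W83S and W89S. Family 3 had a log2 fold change above 0 for all 6 of its segments (42.3% of all rows), yet its sums overlapped. Families 6 and 8 overlapped as well, with ratios of means of 2.03 and 1.45.

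Position was compared next, because segments on the plus strand, that of Igkc, are joined by deletion of the DNA between, and those on the minus strand by its inversion. The 23 plus-strand segments summed to 309, 742 and 285 FPKM in KO and 224, 154 and 145 FPKM in WT, with no overlap. They include the family 1 pair Igkv1-110 and Igkv1-117, which alone summed to 124.9, 290.0 and 175 FPKM against 77.6, 30.8 and 46.2 FPKM. The part of strand in this gap, apart from that pair, was not tested. The 40 minus-strand segments summed to 362, 1072 and 797 FPKM in KO and 433, 435 and 277 FPKM in WT, and K79S lay below W83S and W89S. The log2 fold change was above 0 for 18 of the plus-strand and 28 of the minus-strand segments. In 3 equal groups by distance to Igkc, the 21 farthest segments, which include the family 1 pair, were apart, with 337, 749.8 and 468 FPKM against 252, 194 and 173 FPKM. The nearest and the middle groups overlapped, with ratios of means of 1.90 and 1.96 beside 2.51 for the farthest. Whether the groups of segments differed from each other was not tested.

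**Figure D5:**
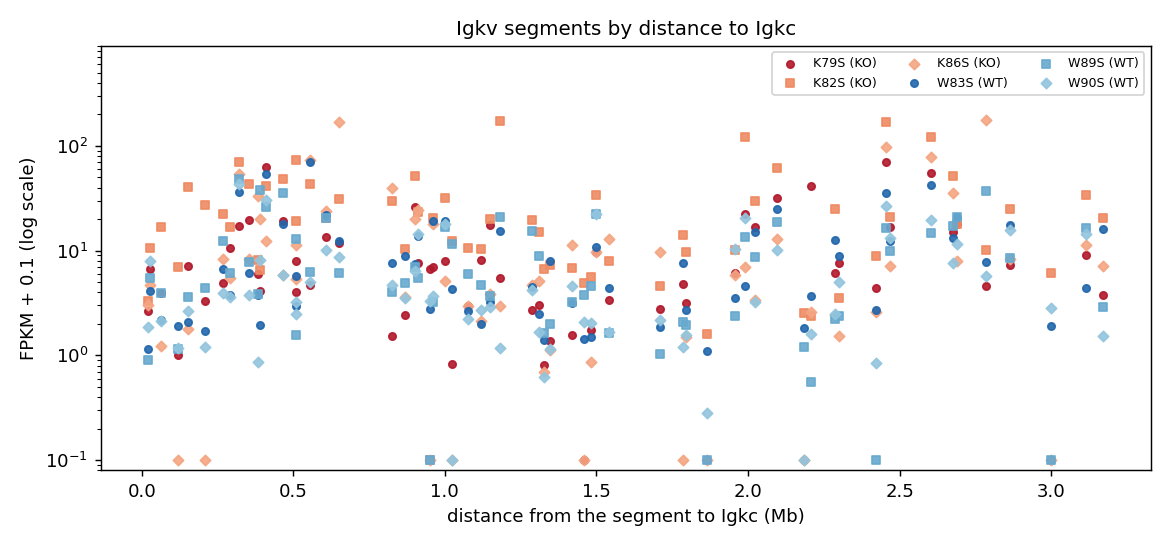
Points show FPKM + 0.1 (log scale) of each segment in the 3 KO libraries (red shades) and 3 WT libraries (blue shades) against its distance to Igkc in Mb, points at 0.1 being listed zeros. High and low segments occur along the whole locus, and the 2 columns near 2.5 Mb with all red points above the blue ones are Igkv1-110 and Igkv1-117.

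Segments without shared sequence were then taken alone. The 10 segments with no 50-base word in another gene had a median log2 fold change of 0.96, with 8 above 0. The other 53 had a median of 0.63, and whether the 2 medians differ was not tested. In only 1 of the 10, Igkv8-24, did every KO value exceed every WT value, and in the others the genotypes overlapped. Igkv6-32, Igkv19-93 and Igkv14-100, each with 1 KO library far above the rest, are among those that overlapped. When segments linked by at least 95% identity were summed, 44 groups resulted, 12 of them with 2 or more segments. In 7 of the 44 (15.9%) every KO value exceeded every WT value, beside 5.90% of single rows, and in 0 every one was lower, beside 11.3%.

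The other genes of antibody-producing cells were examined as lists, and none of their tested genes was called. Of 13 immunoglobulin constant and joining chain genes 8 were tested, 5 with a log2 fold change above 0. Igha had 605, 849.8 and 1041 FPKM in KO and 592, 515 and 507 FPKM in WT, without overlap (log2 fold change 0.60, SE 0.25, adjusted p = 0.393 from limma). Jchain, which links IgA into dimers, had 60.2, 162 and 122 FPKM in KO and 76.7, 71.7 and 59.4 FPKM in WT. Of 12 plasma cell genes 8 were placed and 7 tested, 4 of them above 0. Xbp1, the factor of the secretory program, had 45.8, 46.3 and 44.5 FPKM in KO and 52.1, 37.9 and 48.3 FPKM in WT. Prdm1, which drives plasma cell differentiation and was named after its values were seen, was the plasma cell gene without overlap, with 2.56, 3.64 and 2.55 FPKM against 1.62, 1.25 and 1.21 FPKM (adjusted p = 0.393 from limma). Such a separation, higher in KO, was found in 5.90% of all rows. Fkbp11, Mzb1 and Xbp1 went the other way, with log2 fold changes of -0.62, -0.18 and -0.005, and overlapped. Fkbp11 and Mzb1 were named after their values were seen.

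B cell genes followed single libraries and not the genotype. Of 14, only 3 were placed and tested, and their sums were 6.44, 69.5 and 9.81 FPKM in KO and 7.10, 28.3 and 49.5 FPKM in WT. Cd79a had 2.32, 33.1 and 3.83 FPKM against 2.76, 10.3 and 21.2 FPKM, and Cd79b 2.27, 28.2 and 2.70 FPKM against 3.10, 12.9 and 21.5 FPKM. Both were highest in K82S, the library that was highest for 45 Igkv segments. They were higher in W89S and W90S than in K79S and K86S, unlike the Igkv sum. The part of the B cell content in the Igkv values was not tested.

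The remaining lists were small. Of 6 germinal centre genes 3 were tested, Fas and Bcl6 being the highest, and all overlapped. None of 6 recombination genes was placed. Of 12 transcription factors that act on the kappa locus 6 were tested. All 6 had a log2 fold change above 0 (42.3% of all rows) and all overlapped, with a median of 0.12. Irf8 and Rela were the highest of these, and Irf8 had 23.996, 23.5 and 15.9 FPKM against 11.3, 14.7 and 16.03 FPKM. Of 10 genes of IgA transport, homing and survival 6 were tested, 3 above 0. Pigr, the receptor that carries IgA across the epithelium, had 778, 853 and 893 FPKM against 799, 513 and 949 FPKM. Ccl25, a chemokine that draws IgA plasma cells to the small intestine, had 66.0, 82.4 and 64.3 FPKM against 78.3, 98.2 and 115 FPKM. Itgb7, a chain of the gut homing integrin that was named after its values were seen, did not overlap, with 5.17, 7.79 and 4.81 FPKM against 2.69, 3.92 and 4.15 FPKM (adjusted p = 0.393 from limma). A separation of this kind, higher in KO, was found in 5.90% of all rows.

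Markers of other cells of the mucosa moved with the Igkv sum in part. All 6 tested T cell genes of 9 had every KO value above every WT value (5.90% of all rows), with sums of 152, 215 and 153 FPKM in KO and 112, 69.1 and 93.2 FPKM in WT. Gzma and Gzmb, the granzymes of killer lymphocytes, were the highest of them, and 0 of the 6 were called (adjusted p = 0.393 from limma for each). Macrophage genes, 5 tested of 6 with C1qa and C1qb the highest, had sums of 39.5, 67.6 and 61.9 FPKM against 41.1, 52.0 and 46.2 FPKM. Of these only Csf1r, the macrophage growth factor receptor, named after its values were seen, did not overlap, with 4.69, 5.52 and 6.90 FPKM against 3.32, 4.53 and 3.39 FPKM (adjusted p = 0.393 from limma). Smooth muscle genes, 3 tested of 5 with Acta2 and Tagln the highest, had 16.5, 13.4 and 29.1 FPKM against 10.6, 11.7 and 33.6 FPKM. The enterocyte sum was lowest in K82S, at 10113 FPKM, where the Igkv sum was highest. It was highest in K86S, at 20581 FPKM, where the Igkv sum was the next highest. The part of these differences in tissue content in the Igkv values was not tested.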

How the data were processed

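Libraries were made from total RNA of mucosa (middle small intestine) and read as single ends of 50 bases. After adapter removal with trim-galore, the authors aligned them to the mm10 genome by HISAT2 and estimated expression with StringTie. Versions, annotation and strand handling are not given in the sources used here. The deposited table holds FPKM for each gene in each library. The depth behind each value is unknown, so precision rests on the spread between mice. There were 0 unmapped columns of per-sample values.

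Gene names were moved to their rows by rank, with offsets that earlier work on these data had estimated from decimals. FPKM with at most 6 decimals marks a gene of 1 transcript, and 46 of the 46 such segments stood on such a row, against 16 one row before and 23 one row after. Of the 17 segments of several transcripts, 2 did. Since the offsets had themselves been estimated from decimals, this match is no independent check of the placing. The members, lists and tests were chosen with earlier results of these data known. Named segments were those called, the 12 highest in mean, the highest of each library and of each family with 3 or more placed, and the 5 highest and 5 lowest fold changes among those without overlap, besides the 2 highest genes of each list.

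A row was kept unless over 4 of its values lay below 1 FPKM. The test was that of limma 3.58.1 (R 4.3.3) on log2(FPKM + 1), with a mean-variance trend, no covariate and Benjamini-Hochberg adjustment over all rows, since FPKM are not counts. With 5 libraries the limit was 3 values. Fold changes on this scale understate the change of low genes. The procedure was tested on simulated data. Limits on its calls were set only for rows of equal spread, so the test does not measure power for the segments. Gene models and sequences were from GENCODE M21. Alternatives were other pseudocounts, filters, scalings, weights, offsets and left-out libraries.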

Additional observations from a re-analysis of the deposited data

How the results depend on the processing

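No segment was called under another pseudocount, filter, scaling, trend or weight setting. Leaving out 1 library gave 0 to 4 called segments, the 4 without K82S, and leaving out both K82S and W83S, chosen after seeing the data, gave 6, with 3 in each direction. Segments whose genotypes did not overlap numbered 11 to 18 when 1 library was left out (16, 18 and 15 without K79S, K86S and W83S, all higher in KO, and 14 without K82S, 9 higher and 5 lower) and 22 without K82S and W83S, 15 higher and 7 lower. Fewer libraries make a gap between groups more frequent by construction. Igkv1-117 was called only without K82S and W83S (log2 fold change 1.90, adjusted p = 0.0335 from limma). The genes of the B lineage lists called numbered 0 to 1 without 1 library, the 1 being Fkbp11 without K82S, lower in KO. That was 1 of 32 list genes tested, beside 9.28% of all rows called without K82S and 8.88% called lower in KO. The median log2 fold change was 0.10 to 0.79 without 1 library, with 0.10 without K82S and 0.32 without W90S, and 0.20 with array weights, which gave K82S the lowest weight. Scaling every library to the same sum moved the median of all rows from -0.06 to 0.08 and that of the segments from 0.63 to 0.79.

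With every rank offset set to 0, most names stand on other rows by construction. The median was then -0.048 and the log2 ratio of the sums -0.085, and the log2 fold change was -0.34 for Igkv1-110 and Igkv1-117, -0.050 for Igkv5-43, -0.23 for Igkv8-19 and Igkv8-24 and -0.31 for Igkv4-57. It stayed above 0 for Igkv3-1 (0.81), Igkv4-80 (0.70) and Igkv6-17 (0.018).

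No paired analysis was possible because the study describes its mice as matched pairs, while the labels and methods do not say which KO mouse belongs to which WT mouse. The 3 mice per genotype limit precision, and segments below 1.00 FPKM in W83S were not analysed here.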

Other observations

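The lambda light chain did not separate the genotypes. The sum over placed Iglv segments was 155, 258 and 77.6 FPKM for the KO mice, beside 126, 155 and 129 FPKM for the WT mice, with overlap. The Igkv sum was 4.34, 7.04 and 13.9 times the Iglv sum in the KO libraries and 5.22, 3.80 and 3.27 times in the WT libraries, where W83S lay above K79S. K86S, whose Igkv sum was carried by the fewest segments, had the lowest Iglv sum. Iglc1, a lambda constant gene named after its values were seen, was also lowest in K86S, at 65.7 FPKM, beside 134 and 238 FPKM in the other KO libraries and 126, 161 and 174 FPKM in the WT libraries (adjusted p = 0.841 from limma).

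The 2 placed heavy chain constant genes of other classes were highest in K82S. Ighm, the constant gene of IgM, had 102 FPKM there, while the other KO mice had 9.67 and 11.1 FPKM and the WT mice 16.5, 30.9 and 48.1 FPKM. Ighg2b, a constant gene of IgG, had 72.6 FPKM in K82S, beside 1.73 and 2.75 FPKM in the other KO libraries and 1.78, 10.8 and 12.4 FPKM in the WT libraries. Igha did not follow this order and was highest in K86S, at 1041 FPKM. Both genes were named after their values were seen, and their genotypes overlapped.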
